A study of Mus musculus with 8 samples.

Results

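Stefin-high neutrophils of arthritic joints were examined here, in mice given MCTR3-reprogrammed monocytes (Mono+MCTR3, 4 mice) and in mice given vehicle-treated monocytes (Mono, 4 mice). A cell was counted as a neutrophil when S100a8 and S100a9 made up at least 5% of its unique molecular identifiers (UMIs, which count each captured transcript once). It was called Stefin-high when, in addition, Camp, Ngp and Ltf together stayed under 3% of its UMIs, Rsad2, Isg15, Ifit1 and Ifit3 together stayed under 5 UMIs, and Stfa1, Stfa2l1, BC100530 and Gm5483 together reached at least 5 UMIs. The cells were thus chosen by these measured levels, and 1744 of them were Stefin-high, which is 17.0% of the 10256 cells kept and 26.5% of the 6578 neutrophils. The remaining neutrophils were 3484 Stefin-low cells, which met every limit but the stefin minimum, 1132 Granule-gene-high cells and 218 Interferon-high cells. All mice were C57BL/6, 10 weeks old, and had received K/BxN serum, whose antibodies inflame the joints, on days 0, 2 and 9. Donor monocytes came from the bone marrow of other arthritic mice, were kept for 90 min with 1 nM MCTR3 or with vehicle, and were injected into a vein on day 12. Joint cells carrying the leukocyte marker CD45 were sorted on day 22, and no group without arthritis or without transferred cells was part of this comparison, so both groups share the serum, the transfer and the sort. MCTR3 is a lipid mediator of the maresin conjugate family.

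Stefins are small cytosolic proteins of the cystatin superfamily that bind and block cysteine cathepsins, the papain-like proteases of lysosomes. The mouse holds a local cluster of stefin A genes where the human genome has a single CSTA gene. Neutrophils fill their granules in order while they mature in the marrow, first with primary granule proteins, then with secondary granule proteins such as lactoferrin (Ltf), and last with gelatinase. Chemokine and cytokine receptors of the mature cell appear as granule genes are switched off. Retnlg encodes a resistin-like secreted protein of mouse neutrophils, and Mmp8 encodes neutrophil collagenase, which is stored in granules.

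The 8 mice gave 758 to 1913 kept cells each, with 1731045 to 6009009 UMIs, and the Stefin-high cells of a mouse held 289469 to 646685 UMIs. Stefin-high cells numbered 229, 286, 235 and 153 in the 4 Mono+MCTR3 mice and 235, 254, 204 and 148 in the 4 Mono mice. Mice are told apart by the barcode suffix within the table of their group, which does not say which labelled animal each one was. Any pair of mice shared 0 to 8 barcodes. The UMIs of each gene, summed over the Stefin-high cells of a mouse, differed between mice of a group beyond sampling noise. The chi-square per gene was 2.53 to 7.26 for pairs of mice. A doublet caller marked 13 of the Stefin-high cells (0.745%), against 52 of all kept cells (0.507%).

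The 4 genes of the rule were not evenly represented. Stefin-high cells held a median of 13 stefin UMIs (interquartile range 8 to 24, highest 246), in a median of 1805 UMIs per cell, and 32.6% of them held 20 or more. Stefin-low cells held a median of 0 in a median of 1524 UMIs per cell, and 2372 of them (68.1%) held none. The limit of 5 therefore cut a continuous range: 146 Stefin-high cells held exactly 5 stefin UMIs and 172 Stefin-low cells held exactly 4. Those neighbours were alike in depth (median 1541.5 and 1570.5 UMIs) and in Retnlg (45329 and 48045 CPM, the gene's UMIs over all UMIs of the cells, scaled to 1000000). Ly6g was at 241 and 329 CPM in them and Atf3 at 487 and 420 CPM. Because deeper cells reach 5 UMIs more easily, cells of at least 1000 UMIs were also thinned to 1000. At that depth 73.5% of Stefin-high cells still held 5 stefin UMIs, 8.85% of Granule-gene-high cells did (16.2% before thinning, median 4237 UMIs per cell) and 20.5% of Interferon-high cells did (30.3% before thinning, median 1574.5). This thinning left out 85 Stefin-high, 387 Stefin-low, 2 Granule-gene-high and 18 Interferon-high cells. Cells outside the neutrophils reached 5 stefin UMIs in 0.707% of cases (0.367% after thinning, which left out 134 cells). Of 1451 cells positive for B-cell markers, which should lack stefins, 4.82% held at least 1 stefin UMI and 1 cell held 5 or more, at a median of 2272 UMIs per cell.

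Gm5483 was the most abundant stefin and carried 52.8% of the stefin UMIs of Stefin-high cells, between 47.1% and 55.7% in the 8 mice. Stfa2l1 carried 24.1% (19.2% to 30.1%), Stfa1 carried 14.6% (10.2% to 22.4%) and BC100530 carried 8.49% (3.81% to 11.3%). Gm5483 stood at 5013, 5222, 5673 and 4713 CPM in Stefin-high cells of the 4 Mono+MCTR3 mice and at 5577, 4478, 6156 and 4104 CPM in those of the 4 Mono mice. Stefin-low cells of the same mice held 69.9 to 150 CPM of it. Stfa2l1 had a mean of 2352 CPM (SD 187, n = 8 mice) in Stefin-high cells and 245 CPM (SD 37.8) in Stefin-low cells. Stfa1 varied between mice from 781 to 2930 CPM (SD 681), and its highest value was in Mono mouse 3, which also had the highest BC100530 (1481 CPM) and Stfa2 (272.5 CPM). BC100530 ranged from 322 to 1481 CPM. These genes chose the cells, so the differences between classes are a description and were not tested.

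**Figure D1:**
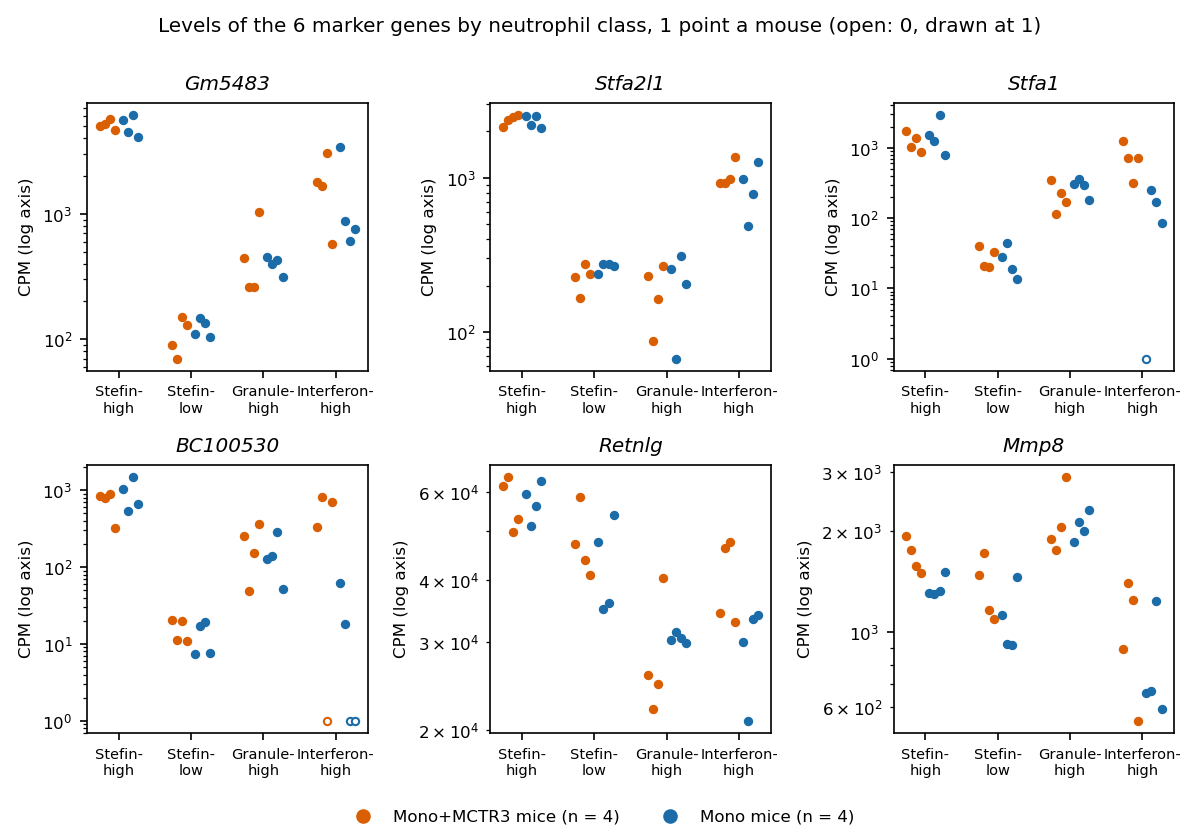
Level of each marker gene in CPM (log axis) in the summed cells of 4 neutrophil classes, 1 point a mouse, Mono+MCTR3 mice in orange and Mono mice in blue, with open points for mice in which the gene was at 0. By their mean the 4 stefin genes were highest in Stefin-high cells, while Mmp8 was highest in Granule-gene-high cells, with means of 1528 CPM in Stefin-high and 2112 CPM in Granule-gene-high cells.

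Single cells rarely held all 4 stefins. Of the Stefin-high cells 536 had UMIs of 1 of the genes, 901 of 2, 262 of 3 and 45 (2.58%) of all 4. Gm5483 was found in 76.3% of the cells and Stfa2l1 in 74.2%. Stfa1 was found in 24.2% (422 cells) and BC100530 in 14.8% (258 cells), and the cells that had them held a median of 7 Stfa1 UMIs (highest 111) or 6 BC100530 UMIs (highest 134). Cells with Gm5483 held a median of 9 (highest 107) and cells with Stfa2l1 a median of 5 (highest 33). Among cells with Stfa1, 66.6% also held Gm5483, against 79.3% of cells without Stfa1, and 21.6% held BC100530, against 12.6%. The requirement of 5 stefin UMIs in sum favours cells that are high in at least 1 gene, so these shares describe the chosen cells only. The mix was different in Stefin-low cells, where Stfa2l1 carried 60.6% and Gm5483 28.9% of the stefin UMIs, and in Granule-gene-high cells, where Stfa1 carried 24.6% and BC100530 15.3%. The stefin transcripts resemble each other: of the 31-base stretches of Stfa1 transcripts 43.8% also occur in another stefin gene, mostly BC100530, and the share was 41.3% for BC100530, 29.3% for Stfa2l1 and 10.2% for Gm5483. Reads of these copies may have been assigned to the wrong copy or dropped by the counting, and the split between Stfa1 and BC100530 is the least certain.

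The listed markers outside the rule, Retnlg and Mmp8, were compared as values. Retnlg averaged 57281 CPM (SD 5499) in Stefin-high cells, 45334 CPM (SD 8251) in Stefin-low cells and 29397 CPM in Granule-gene-high cells, and was higher in Stefin-high than in Stefin-low cells of each mouse. Mmp8 averaged 1528 CPM (SD 228) in Stefin-high cells, 1235 CPM (SD 288) in Stefin-low cells and 2112 CPM (SD 359) in Granule-gene-high cells. The summed neutrophil markers reached 271357 to 395469 CPM in Stefin-high cells. Cxcr2, the receptor by which mature neutrophils leave the marrow and enter tissue, averaged 370 CPM in Stefin-high, 421 CPM in Stefin-low and 105.5 CPM in Granule-gene-high cells. The rule itself required S100a8 and S100a9, which make up most of the neutrophil marker sum, and limited Camp, Ngp and Ltf, so the marker sum and the low granule level describe the selection. The maturity of the cells was not measured in another way.

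The 4 stefins of the rule sit together on mouse chromosome 16 (GRCm38), within 9 expressed stefin genes that span 299 kb. The rule fixed the direction of these 4, and of the other 5 several share sequence with them (50.7% of the 31-base stretches of BC117090, 27.4% of 2010005H15Rik and 26.1% of Stfa2), so all 9 are given as values. The cluster runs from Stfa2l1 (start 36156811, plus strand) over Gm5483 (36184212, plus), Gm5416 (36210403, plus), 2010005H15Rik (36221468, plus), Stfa1 (36276951, plus), BC117090 (36321665, minus), BC100530 (36359382, minus) and Stfa2 (36403992, minus) to Stfa3 (end 36455392, minus). Gm5416 and 2010005H15Rik, named in RefSeq as Csta3 and Csta2, were not part of the rule. Gm5416 was at 82.7 CPM (SD 25.1) in Stefin-high cells and at 9.54 CPM (SD 4.89) in Stefin-low cells, higher in 8 of 8 mice, on 276 and 58 UMIs. It passed the filter on low counts through Stefin-high cells alone and is given without a test. Of its 31-base stretches 3.41% occur in another stefin gene. 2010005H15Rik was at 30.8 CPM in Stefin-high and 7.07 CPM in Stefin-low cells, and was too low in count to be tested. Stfa2 (128 and 8.97 CPM) and Stfa3 (103 and 18.3 CPM) followed the same direction and are given as values.

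A gene near the cluster, which is not a stefin, moved with it. Fam162a lies on the minus strand 85.2 kb before Stfa2l1, from 36043761 to 36071594, and encodes a mitochondrial protein, described for its human counterpart as responsive to hypoxia. It was chosen after its values were seen. In Stefin-high cells Fam162a stood at 64.6, 55.7, 121 and 58.8 CPM in the Mono+MCTR3 mice and at 95.9, 71.9, 124 and 62.2 CPM in the Mono mice. In Stefin-low cells of the same mice its lowest value was 17.4, its median 23.3 and its highest 30.2 CPM. The lowest Stefin-high value thus lay above the highest Stefin-low value, and on the log2 scale the difference was 1.86 (SE 0.16, adjusted p = 8.9e-10, edgeR quasi-likelihood test with Benjamini-Hochberg adjustment over 3023 genes). It lay over the filter on low counts in 8 mice for Stefin-high and in 7 for Stefin-low cells. In the same fit 2.94% of all genes tested were called higher in Stefin-high cells. Fam162a passed the threshold in each of the 8 fits that left out a mouse (log2 fold change 1.72 to 1.95). It also passed in each of the 13 other settings that gave it an adjusted p, including the fit without the mouse block. With DESeq2 it had no adjusted p. It was detected in 208 Stefin-high cells, in 162 of them by a single UMI, and none of its 878 31-base stretches occurs in a stefin transcript.

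Within the neutrophils that met the granule and interferon limits Fam162a rose over bins of stefin content, but not at the class limit itself. Cells with exactly 4 stefin UMIs (172 cells) held 43.7 CPM of it and cells with exactly 5 (146 cells) held 28.6 CPM. Cells without a stefin UMI held 15.8 CPM (63 UMIs in 2372 cells), and cells with over 0 to 2 stefin UMIs per 1000 UMIs held 40.5 CPM (67 UMIs). The level was 47.3 CPM at over 2 to 5, 80.4 CPM at over 5 to 10, 91.9 CPM at over 10 to 20 and 160 CPM above 20 per 1000 (55 UMIs in 183 cells). Granule-gene-high cells with 5 or more stefin UMIs held 20.1 CPM (15 UMIs), against 5.66 CPM (20 UMIs) in those with none. Interferon-high cells with 5 or more held 116 CPM (17 UMIs), against 18.4 CPM (3 UMIs) in those with none. The direction was thus alike in classes that the Stefin-high rule leaves out, on few counts and without a test.

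Of the genes within 500 kb on either side, 11 outside the family had at least 20 UMIs over both classes and 3 were tested, Fam162a among them. Hcls1, an adaptor of the actin cytoskeleton in blood cells, differed by 0.03 on the log2 scale (adjusted p = 0.90), and Golgb1, a Golgi protein, by 0.25 (adjusted p = 0.62). Kpna1, a nuclear import receptor that lies 120 kb before the cluster, had a ratio of mean CPM of 1.41, Stefin-high over Stefin-low, on 40 and 49 UMIs. The ratio was 0.918 for Cd86, a costimulatory receptor on the far side, and 0.886 for Hspbap1. The lowest ratios among the 11 were those of Slc15a2 (0.578, on 9 and 28 UMIs) and Dirc2 (0.705, on 26 and 63 UMIs). The values of Fam162a, Gm5416, 2010005H15Rik and these neighbours were picked out after they were seen.

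**Figure D2:**
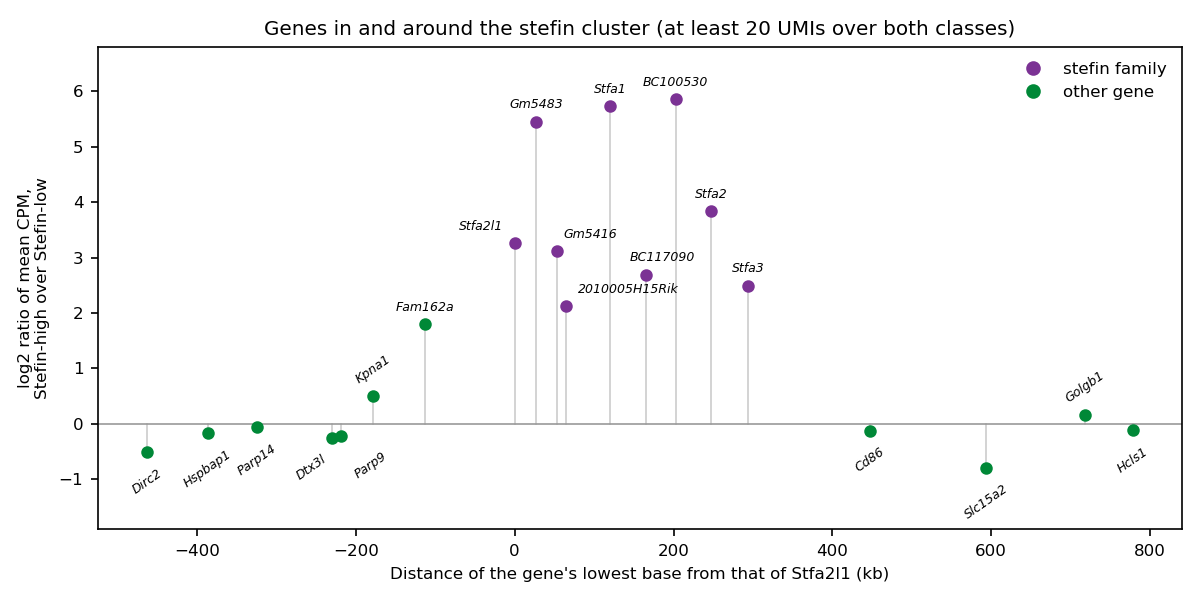
The log2 ratio of mean CPM, Stefin-high over Stefin-low cells, for genes in and around the stefin cluster on chromosome 16, against the distance in kb from Stfa2l1, with stefin genes in purple and other genes in green. Genes with at least 20 UMIs over both classes are drawn. All 9 stefin genes lie above 0, 4 of them by the rule, and of the other genes drawn Fam162a has the highest ratio, 3.47-fold.

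The stretches before the start of 3 of the abundant stefins are printed because they share a run of bases near the start. They are the 250 bases before the RefSeq start of each gene in GRCm38.p6, read on the gene's own strand, at chr16:36276898-36277147 for Stfa1, chr16:36156561-36156810 for Stfa2l1 and chr16:36183962-36184211 for Gm5483 (Cstdc4 in RefSeq), all on the plus strand. The capitals mark the shared run.
Stfa1: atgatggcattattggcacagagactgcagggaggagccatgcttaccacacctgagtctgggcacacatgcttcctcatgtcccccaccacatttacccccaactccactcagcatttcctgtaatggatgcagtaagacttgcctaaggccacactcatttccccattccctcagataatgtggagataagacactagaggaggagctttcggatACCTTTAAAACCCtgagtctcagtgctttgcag
Stfa2l1: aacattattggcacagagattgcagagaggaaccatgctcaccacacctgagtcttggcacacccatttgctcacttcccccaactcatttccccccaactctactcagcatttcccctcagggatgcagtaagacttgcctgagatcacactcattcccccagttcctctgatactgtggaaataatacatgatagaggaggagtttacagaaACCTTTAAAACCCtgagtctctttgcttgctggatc
Gm5483: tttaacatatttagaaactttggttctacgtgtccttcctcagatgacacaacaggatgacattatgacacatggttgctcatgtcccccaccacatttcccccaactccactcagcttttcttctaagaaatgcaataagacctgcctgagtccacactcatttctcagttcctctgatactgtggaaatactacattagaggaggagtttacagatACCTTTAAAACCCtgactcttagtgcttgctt
The run, ACCTTTAAAACCC, begins 33 bases before the start of Stfa1, 36 before Stfa2l1, 32 before Gm5483, 32 before Stfa2 and 34 before Stfa3. It is the longest run shared by these 5 promoter windows, and was found by comparing them. Searched on both strands, it occurs in 8 of 32851 RefSeq promoter windows (0.0244%), and the other 3 are Csta3 (the gene listed as Gm5416), Cstdc3 and Gm7260, which lie in the same cluster. In these 3 it begins further from the start, at 80 bases for Csta3, 58 for Cstdc3 and 62 for Gm7260. It does not occur in the window of 2010005H15Rik (Csta2), a stefin of the cluster, nor in those of Fam162a and Retnlg. Between pairs of the 5 stefins, 68.7% to 89.4% of aligned positions before the start are identical, so a shared run is part of a general likeness of these copies. Of the 9 stefin genes and the 2 others looked up, 9 had a window. BC100530 and BC117090 did not match by name.

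Beyond the stefin locus, the comparison with Stefin-low cells of the same mice asked which other genes differ between neutrophils above and below the stefin limit. Of the Stefin-low cells 31.9% still held 1 to 4 stefin UMIs. Among 3023 tested genes Stefin-high cells had 89 at a higher level (2.94%) and 67 at a lower level (2.22%), with edgeR's quasi-likelihood test, the mouse as a block and Benjamini-Hochberg adjustment. The 13 genes of the rule were left out of the counts and totals of this fit, whereas the CPM values printed use all UMIs. The S100a8 and S100a9 share of UMIs was larger in Stefin-high cells (median 26.3%) than in Stefin-low cells (20.5%), and small differences in CPM can therefore differ from the fold change. The calls rest on the mouse block: without it 3 genes were called (Fam162a, Gm5416 and Fgl2). Gm5416 is counted among these 3 and among the 89. It passed the filter on low counts through Stefin-high cells alone, so its call is not read as a result. With library totals in place of TMM scaling the split was 59 higher and 123 lower. Leaving out Mono+MCTR3 mouse 1, Mono mouse 2 or Mono mouse 3 left 87, 99 or 93 calls. When both classes were limited to cells of 1000 to 2500 UMIs, 70 genes were higher and 35 lower, and 84 of these were among the 156.

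Of the genes higher in Stefin-high cells, Ly6g, the surface antigen that defines mouse neutrophils, stood at 499, 523, 354 and 322 CPM in Stefin-high cells of the Mono+MCTR3 mice and at 432, 288, 252 and 363 CPM in those of the Mono mice. In Stefin-low cells it stood at 324, 520, 243 and 260 CPM and at 296, 161, 200 and 352 CPM. The ranges overlap between mice, but within each mouse the Stefin-high value was the higher one (log2 fold change 0.52, SE 0.08, adjusted p = 3.9e-05). Wfdc21, a secreted protein with a whey acidic protein domain, averaged 3596 CPM in Stefin-high and 2903 CPM in Stefin-low cells (log2 fold change 0.46, adjusted p = 1.9e-08). Lcn2, the siderophore-binding lipocalin of secondary granules, averaged 2219 and 1870 CPM (0.41, adjusted p = 1.0e-07). Lyz2, lysozyme, averaged 13839 CPM (SD 1151) and 11512 CPM (SD 1390) and was higher in 8 of 8 mice (0.40, adjusted p = 1.1e-09). The remaining genes that the naming rule picked, each higher in 8 of 8 mice, were A530064D06Rik (log2 fold change 0.56), Ifitm6 of the interferon-induced transmembrane family (0.45), R3hdm4 (0.44), Scrg1 (0.43), the retinol dehydrogenase Rdh12 (0.37) and the glutaredoxin Glrx (0.35). Scrg1 lost its call in 6 of 14 other settings and in 1 of the fits without a mouse.

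Of the genes lower in Stefin-high cells, Csf1, the growth factor of macrophages, had the lowest fold change among the named genes, with 53.5, 43.3, 80.0 and 40.2 CPM in Stefin-high cells of the Mono+MCTR3 mice and 26.5, 78.4, 56.3 and 51.8 CPM in those of the Mono mice. Stefin-low cells held 114, 61.7, 116 and 102 CPM and 66.0, 202, 136 and 90.2 CPM, so that every mouse had less in its Stefin-high cells (log2 fold change -0.89, SE 0.12, adjusted p = 9.6e-06). Fgl2, a fibrinogen-like protein of leukocytes, averaged 86.0 CPM in Stefin-high and 157 CPM in Stefin-low cells (-0.73, adjusted p = 3.9e-05). Atf3, a transcription factor induced by stress, averaged 317 CPM and 520 CPM (-0.58, adjusted p = 6.2e-07). It varied widely between mice in both classes, from 125 to 612 CPM in Stefin-high cells and from 186 to 976 CPM in Stefin-low cells, but was lower in Stefin-high cells in 8 of 8 mice. Ddit3 (CHOP, -0.52) and Gadd45b (-0.53), which like Atf3 respond to stress, also fell. So did the G-protein subunit Gngt2 (-0.72), the lysosomal lipid-transfer protein Gm2a (-0.67), the actin-regulating kinase substrate Marcks (-0.50), the lysosomal protease Ctsz (-0.50) and the Rab-effector relative Rilpl2 (-0.37), the last of which lost its call in 5 of the 8 fits that left out a mouse.

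**Figure D3:**
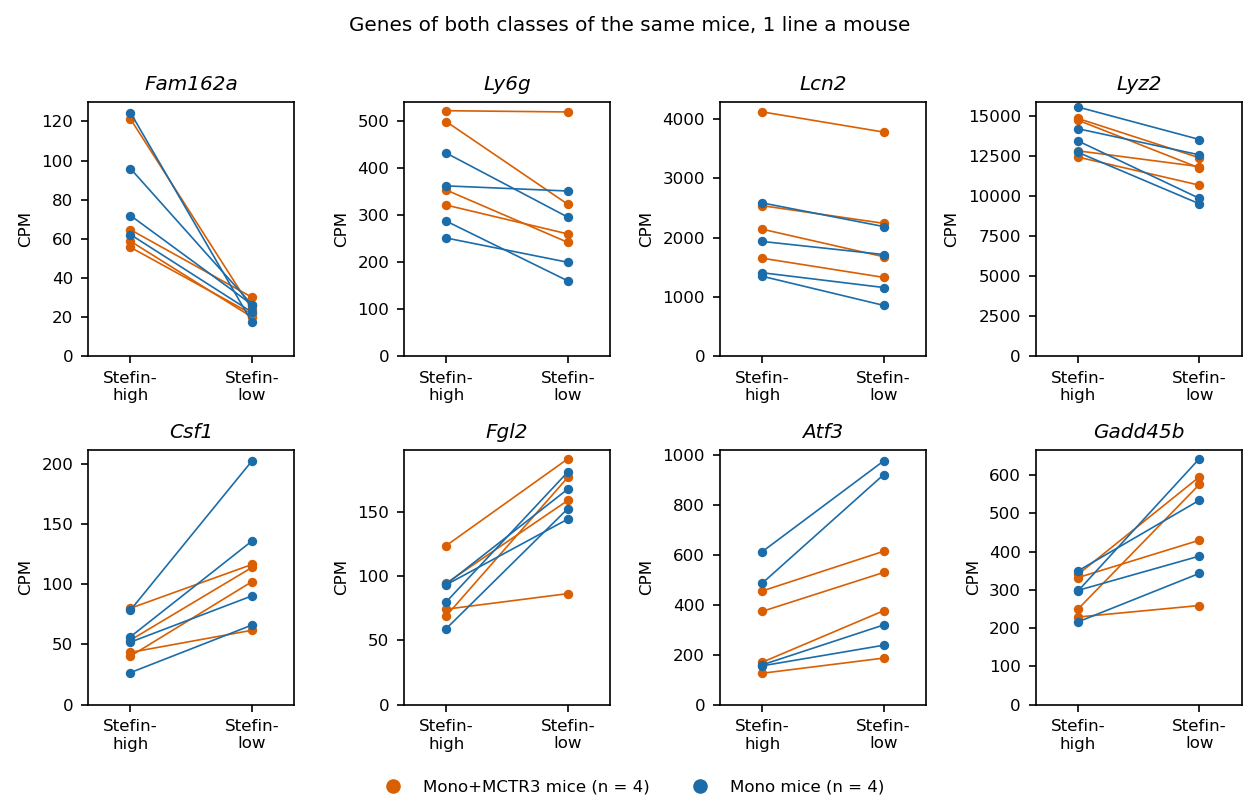
CPM of 8 genes in Stefin-high cells (left) and Stefin-low cells (right), with 1 line a mouse, Mono+MCTR3 mice in orange and Mono mice in blue. Lines of Fam162a, Ly6g, Lcn2 and Lyz2 run higher on the left and lines of Csf1, Fgl2, Atf3 and Gadd45b run higher on the right in 8 of 8 mice, and Fam162a is the gene whose classes do not overlap.

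Counted by gene list, the difference was one of many small changes. Over all genes tested the median log2 fold change was 0.00, with 2.94% called higher and 2.22% called lower, against which the lists are read. Of 9 secondary granule genes tested 4 rose and none fell (Lcn2, Cd177, Pglyrp1 and Mcemp1), with a median of 0.23. Of 7 gelatinase granule genes 3 rose (Mmp9, Fpr2 and Lyz2), with a median of 0.25. Pglyrp1, a peptidoglycan-binding antibacterial protein, averaged 3801 and 3423 CPM (log2 fold change 0.29, adjusted p = 5.6e-06), whereas the rise of the gelatinase Mmp9 was 0.19 and was lost in 7 of 14 other settings. Of 13 tested genes of the resistin and S100 list 6 rose (S100a6, S100a11, Slpi, Wfdc21, Anxa1 and Ifitm6) and 1 fell (Wfdc17). Of 11 glycolysis genes 3 rose (Gapdh, Eno1 and Pkm), by 0.24 to 0.25. None of the 9 primary granule genes had enough counts to be tested.

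The lists named for transcription factors and for inflammatory mediators, which also hold other regulators and receptors, leaned the other way. Of 22 tested genes of the transcription factor list 6 fell (Cebpb, Klf6, Junb, Atf3, Btg2 and Rara) and none rose, with a median of -0.10. Of 21 tested genes of the inflammatory mediator list 5 fell (Ccl3, Ccl4, Ccrl2, Tnfaip2 and Csf1) and none rose, with a median of -0.09. Among all genes tested 2.22% were called lower. Ccrl2, a receptor that binds chemerin and is induced in activated neutrophils, averaged 392 CPM in Stefin-high and 597 CPM in Stefin-low cells (log2 fold change -0.45, adjusted p = 0.00072). The most abundant genes of the mediator list did not pass the test: Il1b had a log2 fold change of -0.03, Cxcl2 one of -0.01, Ccl6 one of 0.01 and Nfkbia one of -0.17 (adjusted p = 0.052). The calls of Klf6, Junb and Rara were lost in 3, 4 and 4 of the 8 fits that left out a mouse, and all of them without Mono mouse 2 or without Mono+MCTR3 mouse 1, which left 3 of the 6. The call of Ccl3 was lost in 5 and that of Ccl4 in 4 of the 8 fits that left out a mouse.

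The proteases that stefins inhibit and the other cystatins were tested as well. Of 5 cysteine cathepsins 2 fell, beside 2.22% of all genes tested. They were Ctsb (log2 fold change -0.41, adjusted p = 0.043, lower in 6 of 8 mice) and Ctsz. Ctsl and Ctsh had fold changes of 0.02 and 0.01 and did not pass. Ctsb lost its call in 5 of the 8 fits that left out a mouse. Both other cystatins that could be tested fell: Cstb, the widely expressed stefin B, averaged 321 and 432 CPM (-0.27, adjusted p = 0.022), and Cst3, the secreted cystatin C, averaged 1019 and 1297 CPM (-0.20, adjusted p = 0.0064).

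Of 20 tested receptors of the mature cell, 2 rose (Fpr2, a formyl peptide receptor, 0.34, and Trem1, 0.20) and 2 fell (Il1r2, the decoy receptor of interleukin 1, -0.15, and Cxcr4, which retains neutrophils in the marrow, -0.31), with a median of 0.03, beside 2.94% and 2.22% of all genes tested. For Cxcr2 the log2 fold change was -0.05 (SE 0.06, adjusted p = 0.74). In the smaller lists 1 of 4 leukotriene and prostaglandin genes rose (Mgst1, 0.35), 1 of 3 cell division genes rose (H2afz, 0.23) and 1 of 7 interferon response genes fell (Ifi27l2a, -0.31). Of 18 actin and migration genes Gda rose and Lst1 fell. Of 13 iron and stress genes Prdx5 rose and Ftl1 fell. The calls of Mmp9, Eno1, Trem1, Il1r2, H2afz, Ifi27l2a and Cstb were each lost in 1 to 5 of the 8 fits that left out a mouse.

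Levels were also followed over stefin content, for genes that already differed between the classes. In cells of the Stefin-high and Stefin-low classes together, Retnlg averaged 46140 CPM (SD 9573, n = 8 mice) where no stefin UMI was found and 63329 CPM (SD 6209) above 20 stefin UMIs per 1000 UMIs. Wfdc21 averaged 2926 and 3776 CPM at these ends, and Lyz2 averaged 11918 and 14162 CPM. Atf3 averaged 533 CPM (SD 339) without stefins, 232 CPM (SD 139) at over 10 to 20 and 123 CPM (SD 57.2) above 20 per 1000. Gm2a averaged 189 CPM without stefins and 69.6 CPM above 20. Ly6g was highest at over 10 to 20 (455 CPM), with 305 CPM without stefins and 362 CPM above 20, so its course was not steady. R3hdm4 averaged 435 CPM without stefins, 423 CPM at over 0 to 2, 505 CPM at over 2 to 5 and 519 CPM above 20. Mmp8 stayed between 1259 and 1338 CPM up to 10 stefin UMIs per 1000 and averaged 1675 and 1627 CPM in the bins above. The top bin held 183 cells, as few as 7 in a mouse, and the spread of Csf1 there (72.0 CPM, SD 96.2) exceeds its mean. Median depth ranged from 1516 to 1835.5 UMIs per cell between bins. No test was run across bins.

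**Figure D4:**
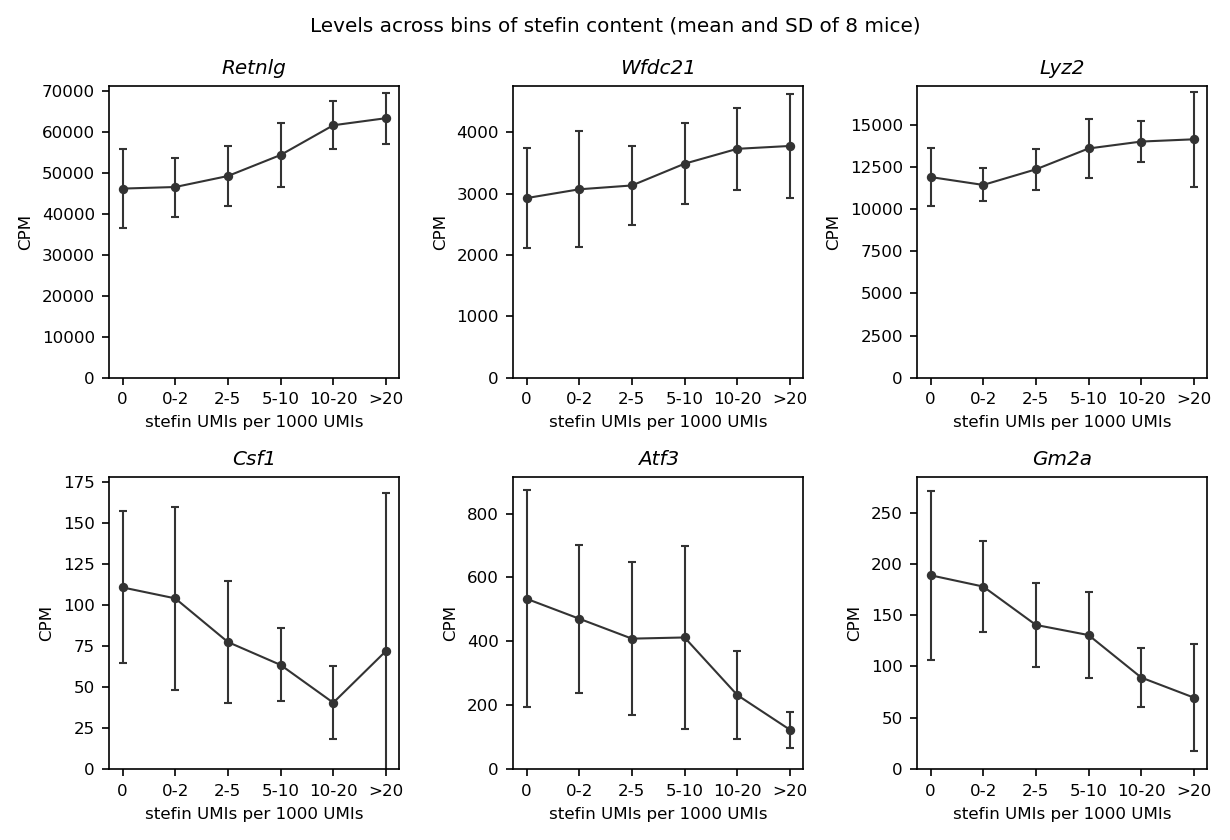
Mean CPM of 6 genes with the SD of 8 mice, in Stefin-high and Stefin-low neutrophils sorted into 6 bins by stefin UMIs per 1000 UMIs of the cell. Retnlg, Wfdc21 and Lyz2 are higher and Atf3 and Gm2a lower at high stefin content, with wide error bars in the last bin, which holds 183 cells.

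Against Granule-gene-high cells the difference was broad. Stefin-high cells had a higher level of 842 genes (31.4%) and a lower level of 839 (31.3%) among the 2681 that could be tested, or 615 and 1169 with library totals, where the median of all genes moved by -0.24 on the log2 scale. The limit on Camp, Ngp and Ltf sets the 2 classes apart, so genes that go with these 3 had to differ. Depth differed too, with medians of 1805 and 4237 UMIs per cell, and between 1000 and 2500 UMIs 284 of 982 genes were called. Chil3, a chitinase-like protein of immature neutrophils, was at 31.4 CPM in Stefin-high and 3360 CPM in Granule-gene-high cells (log2 fold change -6.96), and Fcnb, a ficolin of primary granules, had 2 UMIs in all Stefin-high cells and 851 in Granule-gene-high cells. Cebpe, the factor that drives secondary granule genes, was at 34.3 and 304 CPM (-3.35), and Lta4h, the enzyme that makes leukotriene B4, differed by -4.47. Serpinb1a, an inhibitor of neutrophil elastase, was lower by -3.89. Also lower were Zmpste24, Krt81, Plscr1, Anxa3 and Gca. Of the 20 genes named for this comparison 17 fell under the filter on low counts in at least 1 mouse of the class where they were low, and a gene that passes only through the class where it is high had to differ. In Stefin-high cells Fcnb, Zmpste24, Lta4h, Plscr1 and Gca were over it in 0 of 8 mice and Krt81 in 1, so their direction is not read as a result.

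On the higher side stood Ccl6, a CC chemokine, at 7211 CPM in Stefin-high and 390 CPM in Granule-gene-high cells (log2 fold change 4.01), and Pla2g7, which breaks down platelet-activating factor, at 394 and 11.2 CPM (4.70). Also higher were Sirpb1c (4.79), Tspan13 (4.72), Wfdc17 (4.69), Gm5150 (4.42), Sirpb1b (4.26), Jaml (4.25), Atf3 (4.14) and St3gal6 (3.84). In Granule-gene-high cells Sirpb1c, Tspan13, Gm5150 and St3gal6 were over the filter on low counts in 0 of 8 mice, and Pla2g7 and Atf3 in 1. The direction of these 6 was fixed by the filter and is not read as a result. Sirpb1b and Jaml were over it in 2 mice and Wfdc17 in 5. Sirpb1c, Sirpb1b and Gm5150 belong to a family of near-identical genes and their separate values are uncertain. Among all genes tested 31.4% were called higher and 31.3% lower. Of 20 tested genes of the inflammatory mediator list 18 were higher and 1 (Osm) lower, with a median of 1.86, including Il1b (3670 and 394 CPM) and Cxcl2 (4653 and 516 CPM). Of 19 mature receptors 12 were higher and 5 lower, the latter no more than the share over all genes. Cxcr2 (370 and 105.5 CPM) stood on the higher side beside Csf3r, the receptor of granulocyte colony-stimulating factor (578 and 78.7 CPM). Of 9 secondary granule genes 7 were lower and none higher, and of 3 cell division genes 3 were lower. The limit on Camp, Ngp and Ltf sets these classes apart, so the secondary granule count describes the selection.

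Set against all other neutrophils together, Stefin-high cells were higher in 438 of 3399 genes (12.9%) and lower in 384 (11.3%), or 182 and 717 with library totals, where the median of all genes moved by -0.13. In that mixture the 1132 Granule-gene-high cells are the deepest, at a median of 4237 UMIs. The limit on Camp, Ngp and Ltf keeps these cells out of the Stefin-high class, so genes that go with these 3 had to be lower. Chil3 (log2 fold change -5.66), Lta4h (-3.19), Serpinb1a (-2.62), Cebpe (-2.18), Cpne3, Anxa3, Cybb, Plac8, Lcn2 (-1.45) and AA467197 led the lower side. In Stefin-high cells Lta4h lay over the filter on low counts in 3 of 8 mice, and Chil3 and Cpne3 in 7 of 8. Fas, a death receptor (192 and 113 CPM, 0.77), Acta2 (0.76), the thioredoxin inhibitor Txnip (0.75), Jaml, Rdh12, the protease Asprv1, Ccl6, the lectin Clec4d, A530064D06Rik and the interleukin 36 family member Il1f9 (0.66) led the higher side. Lcn2 was thus lower than in the mixture and higher than in Stefin-low cells. Among cells of 1000 to 2500 UMIs 90 genes were called, and the log2 fold change of Lcn2 was 0.21 there. Cebpe (-0.01), AA467197 (-0.03), Anxa3 (-0.23), Plac8 (-0.31), Cpne3 (-0.37), Serpinb1a (-0.54), Cybb (0.08), Acta2, Jaml and Asprv1 lost their calls in that window.

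Genes of other cell types were present in Stefin-high cells at low level. Some genes passed the test against Stefin-low cells without moving in every mouse and were picked out after their values were seen: Gzma, a granzyme of cytotoxic lymphocytes (log2 fold change 1.22, higher in 6 of 8 mice), Ccl5 (0.90, 5 of 8), Igkc of B-cells (0.72, 6 of 8) and Spp1 of macrophages (0.56, 6 of 8). Gzma and Spp1 each lost the call in 3 and Ccl5 in 4 of the 8 fits that left out a mouse. With called doublets removed Ccl5 had a log2 fold change of -0.49. Summed natural killer markers ranged from 14.5 to 279 CPM in Stefin-high cells, 11.7 to 153 CPM in Stefin-low cells and 2011 to 6257 CPM in cells outside the neutrophils. Summed B-cell markers ranged from 116 to 653 CPM in Stefin-high and 191 to 334 CPM in Stefin-low cells. All 5 natural killer and 7 B-cell markers had UMIs in Stefin-high cells, whereas Cd4, C1qb, C1qc, Mrc1, Epx, Ms4a2, Ppbp, Ccr9 and Cd209a of the other lists were at 0. Of 10 macrophage or monocyte markers 7 had UMIs there, summing to 407 to 878 CPM. That sum was 328 to 925 CPM in Stefin-low cells and 977 to 1817 CPM in cells outside the neutrophils. Of 5 dendritic markers 4 had UMIs, summing to 82.9 to 530 CPM in Stefin-high and 94.5 to 457 CPM in Stefin-low cells. Fibroblast markers stood at 3.09 CPM or less in the Stefin-high cells of the Mono+MCTR3 mice and reached 625 CPM in those of 1 Mono mouse. Ribosomal protein genes made up 3.46% to 4.48% of UMIs in Stefin-high cells and 4.09% to 4.40% in Stefin-low cells, and mitochondrial genes 0.150% to 0.302% and 0.134% to 0.281%. The part of these in the differences between classes was not tested.

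The comparison of Mono+MCTR3 with Mono mice asked whether incubating the donor monocytes with MCTR3, rather than vehicle, went with a different number or content of Stefin-high neutrophils. Stefin-high cells made up 28.2%, 26.4%, 28.4% and 28.2% of neutrophils in the Mono+MCTR3 mice and 31.4%, 24.2%, 25.6% and 20.6% in the Mono mice. The 4 Mono+MCTR3 mice lay close together and inside the range of the Mono mice. Means were 27.8% (SD 0.923, n = 4) and 25.4% (SD 4.48, n = 4), with p = 0.40 in a two-sided exact permutation test (0.667 after adjustment over 5 values). The exact 95% binomial intervals, which cover counting error only, ran from 24.5% to 32.2% for Mono+MCTR3 mouse 4, the least populated of its group, and from 17.7% to 23.7% for Mono mouse 4, which had the lowest share. Of all kept cells Stefin-high cells made up 18.9% (SD 3.65) in Mono+MCTR3 and 16.2% (SD 3.86) in Mono mice (exact permutation p = 0.40). Among Stefin-high and Stefin-low cells together they made up 34.9% (SD 2.53) and 31.9% (SD 5.39, exact permutation p = 0.371). With cells thinned to 1000 UMIs, a choice made after seeing the data, this last share was 26.1% and 25.4% (exact permutation p = 0.886). With 4 mice against 4 the exact permutation test cannot go below p = 0.0286, and none of these differences had a p under 0.05 in it.

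The summed stefin level in Stefin-high cells was 9502 CPM (SD 819) in Mono+MCTR3 and 9958 CPM (SD 2425) in Mono mice (exact permutation p = 0.743). Over all neutrophils it was 2853 CPM (SD 405) and 2847 CPM (SD 859, exact permutation p = 0.971). Without Mono mouse 3, which had the highest level (13076 CPM), the difference in Stefin-high cells turned to 584 CPM higher in Mono+MCTR3 mice. Single stefins did not pass the test either: Gm5483 had 5155 CPM (SD 404) in Mono+MCTR3 and 5079 CPM (SD 952) in Mono mice, and Stfa1 had 1255 CPM (SD 375) and 1621 CPM (SD 923), each with an adjusted p of 0.97 in edgeR's quasi-likelihood test.

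**Figure D5:**
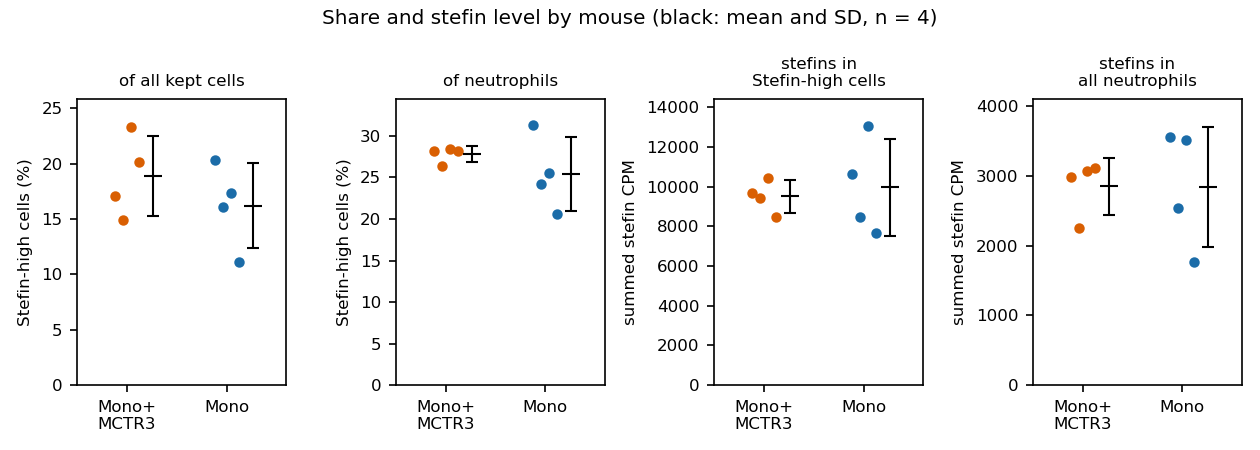
Share of Stefin-high cells (percent of all kept cells and of neutrophils) and summed level of the 4 stefin genes (CPM, in Stefin-high cells and in all neutrophils), 1 point a mouse, Mono+MCTR3 mice left and Mono mice right, with mean and SD in black (n = 4). The groups overlap in each panel, and the share of neutrophils spans 26.4% to 28.4% in the Mono+MCTR3 mice and 20.6% to 31.4% in the Mono mice.

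No gene passed the threshold between Mono+MCTR3 and Mono mice within Stefin-high cells: 0 of 2522 were called (0%), 126 had an unadjusted p under 0.05, and DESeq2 called 0 as well. In 84 genes (3.33%) all Mono+MCTR3 mice lay above or all below the Mono mice. Mmp8 was at 1939, 1755, 1575 and 1504 CPM in the Mono+MCTR3 mice and at 1305, 1301, 1330 and 1510 CPM in the Mono mice, so the groups overlapped by 1 mouse (log2 fold change 0.41, SE 0.13, adjusted p = 0.89). Rgs1, a regulator of G-protein signalling, ran from 22.3 to 41.2 CPM in the Mono+MCTR3 mice and from 49.0 to 148 CPM in the Mono mice. All 4 Mono+MCTR3 mice lay below the Mono mice, and its log2 fold change of -1.26 was the lowest among genes averaging 50 CPM or more (adjusted p = 0.89). The other values furthest from 0 were those of Abhd5 (0.81), Hbb-bs (0.79), Ltf (0.77), Lrg1 (0.75) and Rgcc (0.65), and of Gzma (-0.89), Wfdc17 (-0.86), mt-Nd1 (-0.79) and Ccdc189 (-0.71), with adjusted p between 0.89 and 0.91. In the fit with no filter on low counts Rgs1, Lrg1, Gzma, Wfdc17 and mt-Nd1 passed the threshold. Hbb-bs is a globin gene of red cells and Gzma a gene of cytotoxic lymphocytes. In cells outside the neutrophils summed erythroid markers ran from 11963 to 26597 CPM in the Mono+MCTR3 mice and from 105 to 935 CPM in the Mono mice. In Stefin-high cells they ran from 77.4 to 165 CPM and from 5.92 to 129 CPM. The part of this in the difference between the groups was not tested. Ltf, which the rule limits, had a log2 fold change of -0.16 without Mono+MCTR3 mouse 2.

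By list, none called, 9 of the 9 secondary granule genes outside the rule had a positive log2 fold change between the groups (median 0.18), as had 8 of 8 gelatinase granule genes (median 0.21) and 4 of 4 leukotriene and prostaglandin genes (median 0.35), against a median of 0.00 over all genes. With library totals in place of TMM, which moved the median of all genes by -0.098, these counts were 8 of 9, 5 of 8 and 3 of 4. Of 21 genes of the inflammatory mediator list 13 were positive (median 0.13), and of 9 stefins and cystatins 3 were (median -0.10). Whether the difference between Mono+MCTR3 and Mono mice was unlike in Stefin-high and Stefin-low neutrophils was tested with an interaction term. Of 3441 genes 0 were called (137 with an unadjusted p under 0.05, and 0 by edgeR's likelihood ratio test). On simulated data this test recovered 55 of 99 genes changed by 1 on the log2 scale, so it can miss differences of that size.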

How the data were processed

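CD45+ cells of paw joints were profiled by droplet single-cell RNA sequencing in 4 Mono+MCTR3 and 4 Mono mice. The authors made the deposited UMI counts, 1 table a group, with Cell Ranger and STAR on GRCm38 and joined the mice of a group with Cell Ranger's aggregation step, described as normalising them. Its setting is not given in the sources used here, and depths are those of the files, which still differed between mice. The tables hold 28434 gene rows and 10538 barcodes. No deposited cell annotation was used.

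Barcodes were kept when they held 500 UMIs or more from 250 to 3000 genes and mitochondrial transcripts took up 5% or less (282 removed). Called doublets were kept in (Scrublet in scanpy 1.11.5, at 0.8% expected per 1000 cells). Counts were summed per mouse, taken from the barcode suffix, and class. They were tested with edgeR 4.0.16 (R 4.3.3) by its quasi-likelihood test, with filterByExpr, TMM scaling and Benjamini-Hochberg adjustment at 0.05. The block was the mouse where classes of the same mice were compared. Suffix numbers do not pair mice across the groups. In class comparisons the 13 genes of the rule were left out of counts and totals, and 5 more (Retnlg, Mmp8, Stfa2, Stfa3 and BC117090) were given as values only. DESeq2 1.42.0, edgeR's likelihood ratio test, other scalings, filters, class limits, depth windows and fits without 1 mouse were alternatives. Mouse values were compared with two-sided exact permutation tests (scipy 1.17.1). P-values for Mono+MCTR3 against Mono rest on the spread between these mice. Where the mouse was the block they rest on how the difference between classes varied from mouse to mouse. The code was tested on simulated data: at a log2 change of 1 it recovered 92 of 92 changed genes for Stefin-high against Stefin-low (2908 genes), with 8 false among 191 calls. For Mono+MCTR3 against Mono it recovered 90.6%, among 1782 genes. These had passed a stricter filter on low counts than the 2522 genes tested, so recovery of the scarcer genes was not measured. For the interaction it recovered 55.6%, among 2990 genes against 3441 tested.

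Genes named for a class comparison were the 10 highest and 10 lowest fold changes among called genes that moved alike in 8 of 8 mice and averaged 100 CPM or more in the higher class. For Mono+MCTR3 against Mono, where none was called, they were the 5 highest and 5 lowest at a mean of 50 CPM or more. To these came the 4 most abundant genes of each of 16 lists. One of the lists is not reported here. Other called list members in the text were added after their values were seen. Members and lists were chosen with earlier results of these data known. Gene positions are from GENCODE vM21, and 26 rows whose names read as dates were left unnamed.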

Additional observations from a re-analysis of the deposited data

Results flagged for a closer look

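In 86 groups of 4 mice, a mouse far from the other 3 was looked for, and 5 groups held one, where chance gives about 1 in 20. The share of Stefin-high cells among neutrophils was 26.4% in Mono+MCTR3 mouse 2, against 28.2% to 28.4% in the other Mono+MCTR3 mice. The summed stefin level in all neutrophils was 2250 CPM in the same mouse, which gave the most cells and UMIs of all mice, against 2983 to 3111 CPM in the others of its group. Fam162a stood at 121 CPM in the Stefin-high cells of Mono+MCTR3 mouse 3, against 55.7 to 64.6 CPM in the others, and without any 1 mouse its difference from Stefin-low cells stayed past the threshold. Mmp8 stood at 1510 CPM in Mono mouse 4, against 1301 to 1330 CPM in the other Mono mice, and Rdh12 stood at 262.6 CPM there, against 385.5 to 392.2 CPM.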

How the results depend on the processing

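Against Stefin-low cells 156 genes were called, and 66 with DESeq2 (1088 genes with an adjusted p), 88 with an S100a8 and S100a9 minimum of 10%, 97 with a stefin minimum of 0.25% of UMIs (74 shared with the 156), 85 with a minimum of 3 UMIs and 3 with no replicate block for the mouse. Leaving out a mouse gave 87 to 186. Against all other neutrophils 822 were called, and 450 with DESeq2, 90 among cells of 1000 to 2500 UMIs (47 shared), 463 with no replicate block and 483 with a stefin minimum of 10 UMIs. Against Granule-gene-high cells 1681 were called, and 284 among cells of 1000 to 2500 UMIs, where 982 genes were tested, and 2806 with no filter on low counts. Between Mono+MCTR3 and Mono mice 0 were called, and 28 with no filter (4 higher, 24 lower). The interaction test had 0 calls in each fit.

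The summed stefin level in Stefin-high neutrophils, -456 CPM as Mono+MCTR3 minus Mono, was 420.9 among cells of 1000 to 2500 UMIs and ran from -1222 to 584 without 1 mouse. The summed stefin level in all neutrophils, 5.64 CPM, was -49.5 with the 10% minimum and -0.153 with called doublets removed, and ran from -352 to 243 without 1 mouse. The differences in share stayed positive under each alternative run.

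Of single genes, Cybb (0.080) and Lcn2 (0.21) turned against all other neutrophils among cells of 1000 to 2500 UMIs. Against Stefin-low cells Ccl5 turned with doublets removed (-0.49), in that depth window (-0.0250) and with the 0.25% minimum (-0.96), as did Gzma (-0.98). Ltf ran from -0.16 to 1.00 between the groups without 1 mouse. The cause was not tested. Genes too low for the filter, such as 2010005H15Rik with 99 UMIs in Stefin-high cells, were not tested.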

Other observations

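Stefins were also found in neutrophils that the granule and interferon limits leave out. Of 1993 neutrophils with at least 5 stefin UMIs, 87.5% were Stefin-high, 9.18% Granule-gene-high and 3.31% Interferon-high. Granule-gene-high cells with 5 or more stefin UMIs (183 cells, median 3708 UMIs) had a median of 6.16% of their UMIs in Camp, Ngp and Ltf, against 12.2% in those without a stefin UMI (716 cells, median 4454.5 UMIs). Their pooled Retnlg was 48124 CPM, against 22300 CPM, and their Il1b 760 CPM, against 281 CPM. Chil3 was at 1915 CPM, against 4190 CPM. Interferon-high cells with 5 or more stefin UMIs (66 cells) had 37721 CPM of Retnlg, against 26987 CPM in those with none (104 cells). These are pooled values over all mice, without a test.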
